A study of Mus musculus with 30 samples.

Results

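Basophils, eosinophils and mast cells are rare granulocytes, and the messages of their granule proteins and IgE receptor can be followed in bulk RNA from marrow. The 8 such genes taken here by symbol are described in mouse bone marrow from a model of therapy-related myeloid neoplasm. They are Mcpt8 and Prss34 (serine proteases of basophil granules), Fcer1a and Ms4a2 (the alpha and beta subunits of the high-affinity IgE receptor), Cpa3 (a carboxypeptidase of mast cell and basophil granules), and Prg2, Prg3 and Epx (the major basic proteins and the peroxidase of eosinophil granules). All 8 were among the 11740 genes of the table for LSK cells, the Lin- Sca-1+ Kit+ fraction of marrow that holds stem and early progenitor cells, and 6 were among the 11275 genes analysed for unsorted marrow. Ms4a2 and Prg3 were not found by symbol in the marrow table and were not analysed there.

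The LSK table held 12 libraries in 4 groups of 3. The WT group was untransplanted wild type C57BL/6 marrow with no shRNA and no ENU (N-ethyl-N-nitrosourea, an alkylating mutagen). Transplanted WT was wild type marrow carrying a Luciferase shRNA, with no ENU. EAP was Egr1+/-, Apc del/+ marrow carrying a Trp53 shRNA, with no ENU, and EAP with ENU was the same marrow with ENU given to donor and recipient. The 3 transplanted groups had wild type recipients and were collected about 2 months after transplant. The marrow table held 6 MDS (myelodysplastic syndrome) and 6 AML (acute myeloid leukaemia) libraries from wild type recipients of Egr1+/-, Apc del/+ marrow. MDS marrow carried the Luciferase shRNA, and its donors and recipients had ENU. AML marrow carried the Trp53 shRNA, and its exposure differed: donor and recipient in AML 1, AML 4 and AML 5, the recipient in AML 6, and none in AML 2 and AML 3. Disease and shRNA therefore cannot be told apart between MDS and AML. Nothing says that the LSK libraries of a group came from separate mice, so p-values there measure the spread between these samples.

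Basophils and mast cells arm their surface with IgE held by the high-affinity receptor, and cross-linking of that IgE by antigen releases histamine and the proteases of their granules. Eosinophils store cationic proteins that are toxic to parasites and to tissue. These lineages arise from marrow progenitors that also give erythroid cells and megakaryocytes, under GATA factors, C/EBP proteins and the cytokines interleukin-3 and interleukin-5. Cpa3 is also transcribed in early progenitors that have not yet committed to a granulocyte lineage.

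The genes lie on 7 chromosomes of mm10. Prg2 (chr2:84980461-84983632) and Prg3 (chr2:84988215-84993886) are neighbours on the plus strand of chromosome 2. Mcpt8 spans chr14:56082166-56085273, Prss34 chr17:25298394-25300165, Epx chr11:87864000-87875536, Fcer1a chr1:173221284-173227214, Ms4a2 chr19:11615523-11623719 and Cpa3 chr3:20215620-20242181. Promoters from RefSeq (GRCm38.p6, 250 bases before to 50 after the start) were matched for 7 of the 8 genes. A GATA word (the letters GATA after an A or a T and before an A or a G, so AGATAA is an example, on either strand) was found in 5 of the 7, and in 29.8% of 32851 promoters of that length. The C/EBP word TTGCNNAA was in 1 of 7 (10.8% of all promoters), the RUNX word TGTGGT in 4 of 7 (16.8%) and the ETS word GAGGAA in 2 of 7 (28.3%). A match describes letters in this window and nothing more.

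The promoters below are those of the basophil proteases, the IgE receptor subunits and Cpa3, the genes that most of the results concern. They are written 5′ to 3′ on the gene's strand, with the letters of a GATA word in capitals. Ms4a2 (chr19:11623670-11623969, minus) holds 3, Fcer1a (chr1:173227180-173227479, minus), Cpa3 (chr3:20242132-20242431, minus) and Prss34 (chr17:25298144-25298443, plus) hold 1 each, and Mcpt8 (chr14:56085148-56085447, minus) holds none. Relative to the start, the words begin at -224, -37 and -11 in Ms4a2, -92 in Fcer1a, -46 in Cpa3 and -31 in Prss34.
Ms4a2: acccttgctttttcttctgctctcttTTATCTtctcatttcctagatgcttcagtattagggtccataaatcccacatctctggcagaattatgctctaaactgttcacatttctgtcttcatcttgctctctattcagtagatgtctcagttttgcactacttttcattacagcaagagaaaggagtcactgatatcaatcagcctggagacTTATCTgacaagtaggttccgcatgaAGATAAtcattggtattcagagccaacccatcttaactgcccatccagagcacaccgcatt
Fcer1a: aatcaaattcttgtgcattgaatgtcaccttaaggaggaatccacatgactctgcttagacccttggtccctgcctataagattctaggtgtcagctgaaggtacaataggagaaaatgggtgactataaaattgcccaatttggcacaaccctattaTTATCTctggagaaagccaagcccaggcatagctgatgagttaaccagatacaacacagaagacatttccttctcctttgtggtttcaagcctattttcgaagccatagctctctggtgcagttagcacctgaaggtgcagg
Cpa3: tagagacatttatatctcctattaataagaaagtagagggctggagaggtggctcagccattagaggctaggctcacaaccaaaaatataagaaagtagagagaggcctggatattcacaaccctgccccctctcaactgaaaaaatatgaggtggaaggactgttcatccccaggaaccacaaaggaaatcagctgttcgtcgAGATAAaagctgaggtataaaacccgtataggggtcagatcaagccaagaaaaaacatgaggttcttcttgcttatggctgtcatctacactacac
Prss34: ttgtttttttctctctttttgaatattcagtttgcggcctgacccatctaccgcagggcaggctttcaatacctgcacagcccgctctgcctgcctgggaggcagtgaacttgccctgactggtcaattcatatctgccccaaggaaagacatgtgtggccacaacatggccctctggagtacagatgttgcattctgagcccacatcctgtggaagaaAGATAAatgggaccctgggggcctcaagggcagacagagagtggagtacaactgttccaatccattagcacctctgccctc
Mcpt8: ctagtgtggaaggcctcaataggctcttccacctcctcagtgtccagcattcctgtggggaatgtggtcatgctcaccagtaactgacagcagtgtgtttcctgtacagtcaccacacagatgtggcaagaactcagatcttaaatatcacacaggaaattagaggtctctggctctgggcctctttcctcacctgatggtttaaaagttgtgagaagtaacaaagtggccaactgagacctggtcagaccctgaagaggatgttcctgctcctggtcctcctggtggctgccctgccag

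Values are the authors' normalised expression values, which are not divided by gene length. Library totals in the LSK table ran from 808377 to 1034526 in 9 libraries and from 1130054 to 1437201 in WT 2, transplanted WT 3 and EAP 1, which also stood apart on the first principal component. The read depth of the LSK libraries is unknown. Kit, a gene of the sort itself, was 158 in WT 2, 170.5 in transplanted WT 3 and 65.3 in EAP 1, against 215 to 598 in the other 9. Ly6a, which encodes Sca-1, was 78.0 to 245 and at 0 in no library. A transplant label of EAP 1 names wild type marrow, against its other labels, but its Trp53 value of 65.5 was the lowest of the 12. Trp53 was 65.5 to 173 in EAP and EAP with ENU and 213 to 370.4 in WT and transplanted WT. In marrow, 17341986 to 21698808 reads per library were recovered from the values, and 3 reads were worth 0.134 to 0.170. Trp53 was 43.2 to 97.9 in MDS and 23.0 to 58.0 in AML, so the ranges overlapped.

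The 8 genes differed widely in level within LSK cells. Averaged over the 12 libraries, Prss34 lay above 86.2% of all genes of the table, Cpa3 above 77.1%, Mcpt8 above 70.5% and Prg2 above 62.8%. Fcer1a lay above 42.6%, and Epx, Ms4a2 and Prg3 above 15.0%, 14.9% and 10.5%. These percentages are not corrected for gene length.

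Per kilobase of exon, which allows genes to be set against each other, Cpa3 led in WT at 37.4 ± 6.10 (SD, n = 3). Prss34 (14.8 ± 19.0) and Mcpt8 (13.4 ± 3.20) followed and did not differ beyond their spread, and Prg2 was 4.21 ± 3.13. The other 4 were each below 1, with Ms4a2 at 0.632 ± 0.567, Fcer1a at 0.416 ± 0.656, Prg3 at 0.232 ± 0.402 and Epx at 0.058 ± 0.101, and neighbours in that order differed by less than the larger of their SDs. The progenitor-expressed carboxypeptidase was thus the top gene of the 8 in untransplanted WT.

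In the transplanted groups, which also carried an shRNA vector, the order of the group means was not that of WT. In transplanted WT 1 itself Cpa3 still led per kilobase, at 48.1 against 38.3 for Mcpt8 and 30.1 for Prss34. In transplanted WT the level per kilobase was 216 ± 230 for Prss34, 91.0 ± 73.6 for Prg2, 83.7 ± 41.8 for Mcpt8 and 70.7 ± 29.6 for Cpa3, and neighbours in that order differed by less than the larger of their SDs. Fcer1a was 15.1 ± 7.24, and Prg3 (3.64 ± 3.16), Epx (2.82 ± 2.52) and Ms4a2 (1.30 ± 0.296) were lowest. In EAP the level per kilobase was 178 ± 222 for Prss34, 66.1 ± 33.2 for Prg2, 65.8 ± 47.8 for Mcpt8, 52.4 ± 41.6 for Cpa3 and 34.6 ± 48.1 for Fcer1a. In EAP with ENU it was 103 ± 15.7 for Mcpt8, 80.7 ± 18.6 for Prss34, 74.8 ± 14.3 for Cpa3, 64.0 ± 2.05 for Prg2 and 31.1 ± 7.85 for Fcer1a. Ms4a2 (2.41 ± 0.229) and Prg3 (2.23 ± 0.742) did not differ there beyond their spread, and Epx was 1.13 ± 0.109.

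**Figure D1:**
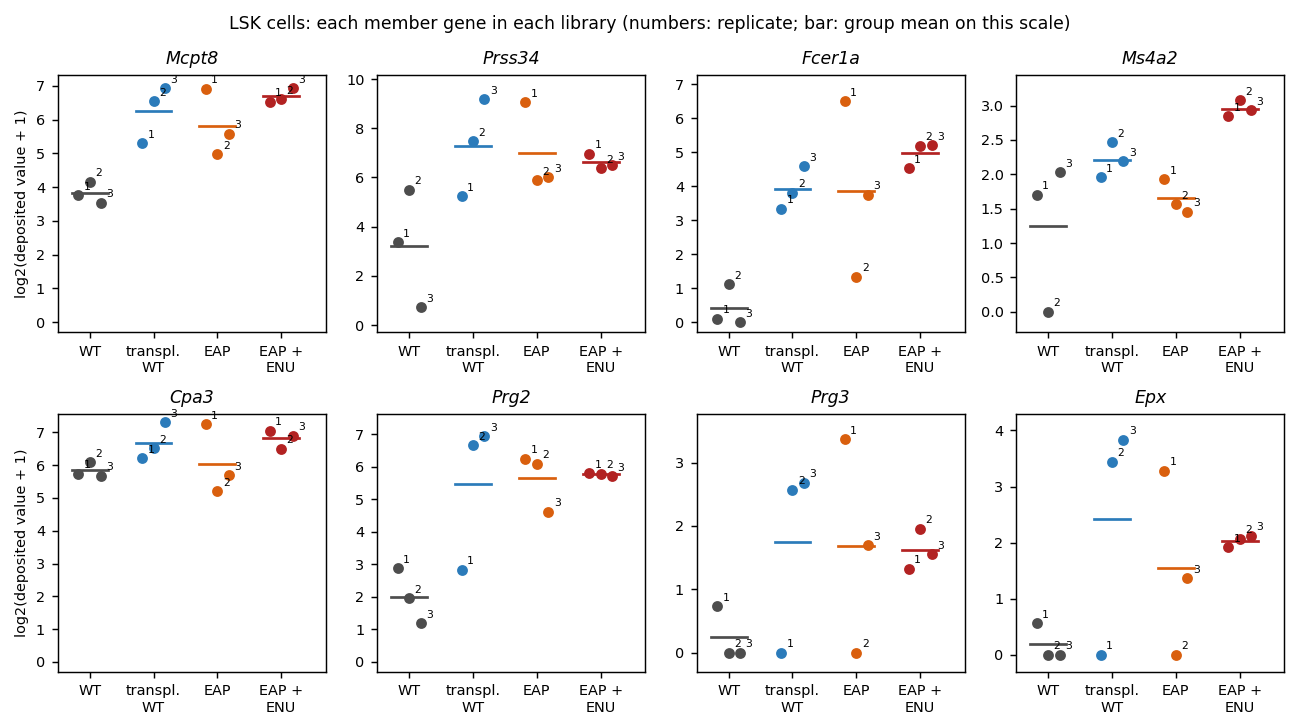
Values of the 8 genes in the 12 LSK libraries, one panel per gene, with the 4 groups along the horizontal axis and log2(value + 1) of the deposited values on the vertical axis; points are libraries and lines are group means. WT libraries lie lowest for most genes, and Prg2 runs from 51.7 to 54.9 in EAP with ENU and from 6.15 to 122 in transplanted WT.

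The first comparison asks how LSK cells that had been transplanted and carried the Luciferase vector differed from untransplanted ones. Mcpt8 was 12.5, 16.9 and 10.7 in WT 1 to 3 and 38.2, 92.0 and 120.3 in transplanted WT 1 to 3. The groups did not overlap, and the lowest transplanted library lay above the highest WT library. The difference was 2.43 on the log2(value + 1) scale (SE 0.49), with an adjusted p of 0.223 by limma.

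Prss34, the other basophil protease, was 9.30, 44.4 and 0.661 in WT and 36.7, 178 and 577 in transplanted WT. WT 2 lay above transplanted WT 1, so the groups overlapped, and the values within each group spanned more than those of any other of the 8 genes in that group. The log2 difference was 4.10 (SE 1.24, adjusted p 0.485).

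Fcer1a, which encodes the subunit that binds IgE, was at or near the bottom of the scale in WT, with 0.076, 1.17 and 0. It was 9.14, 12.98 and 23.1 in transplanted WT, with no overlap, and the log2 difference was 3.50 (SE 0.97, adjusted p 0.466). Ms4a2, the signal-amplifying beta subunit, was 2.25, 0 and 3.08 in WT and 2.89, 4.54 and 3.56 in transplanted WT. Its groups overlapped, and the difference was 0.96 (SE 0.45, adjusted p 0.700).

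Cpa3 was 52.6, 67.3 and 50.2 in WT and 73.0, 90.7 and 158 in transplanted WT. The groups did not overlap, but the log2 difference of 0.84 (SE 0.46, adjusted p 0.764) was the lowest of the 8. Among the eosinophil genes, Prg2, the main major basic protein, was 6.41, 2.90 and 1.27 in WT and 6.15, 100.7 and 122 in transplanted WT. Transplanted WT 1 stayed at the WT level while the other 2 libraries were far above it, for a difference of 3.47 (SE 0.91, adjusted p 0.442).

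Prg3 and Epx followed the split seen for Prg2. Prg3 was 0.661, 0 and 0 in WT and 0, 4.94 and 5.42 in transplanted WT, and Epx was 0.479, 0 and 0 against 0, 9.90 and 13.3. Their log2 differences were 1.51 (SE 0.82, adjusted p 0.764) and 2.24 (SE 0.95, adjusted p 0.643). In transplanted WT 1, both were thus listed at 0. In that library Mcpt8, Fcer1a and Cpa3 lay above WT, while Prss34 (36.7) and Ms4a2 (2.89) lay within the WT range.

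In counts, limma called 0 of the 8 genes between transplanted WT and WT, against 0.0256% of all genes tested. At an unadjusted p under 0.05 there were 5 of 8 (Mcpt8, Prg2, Fcer1a, Prss34 and Epx), all higher, against 7.29% of all genes. Groups did not overlap, with transplanted WT higher, for 3 of 8 (Mcpt8, Fcer1a and Cpa3), against 7.71% of all genes. The median log2 difference was 2.34 over the 8 genes and -0.0007 over all genes tested. All of these are bulk values, in which fewer cells of a type and less RNA per cell cannot be told apart.

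Leaving out WT 2, transplanted WT 3 and EAP 1, an alternative chosen after seeing the data, left 2 libraries each in these groups and 3 calls by limma. Mcpt8 rose by 2.27 (adjusted p 0.0252), Fcer1a by 3.52 (adjusted p 0.0296) and Prss34 by 4.31 (adjusted p 0.0327) in transplanted WT, while 4.27% of all genes tested were called in that fit. Without transplanted WT 1 the only member called was Prg2, which rose by 4.79 (adjusted p 0.024), in a fit that called 0.0171% of all genes.

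The second comparison sets EAP beside transplanted WT, both transplanted and free of ENU. Mcpt8 was 119.9, 30.4 and 46.8 in EAP 1 to 3, and Prss34 was 530.0, 58.4 and 63.2. EAP 1 stood far above EAP 2 and EAP 3 for both, and each group's range overlapped that of transplanted WT. The log2 differences were -0.43 (SE 0.49) for Mcpt8 and -0.32 (SE 1.24) for Prss34.

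Fcer1a showed the same split within the group, with 89.5 in EAP 1 against 1.52 and 12.4. The 89.5 was its highest value of the 12 libraries, and 1.52 the lowest of the 9 transplanted ones. Cpa3 was 152, 35.8 and 51.0. EAP 2 was the lowest of the 12 LSK libraries for Cpa3, below all of WT.

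Ms4a2 went another way, with 2.81, 1.96 and 1.74 in EAP, all below transplanted WT. This was the only gene of the 8 whose groups did not overlap, lower in EAP, and its difference was -0.56 (SE 0.45). Lower groups without overlap were found for 3.18% of all genes.

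Prg2 was 75.0, 67.5 and 23.6 in EAP. EAP 2 was low for the basophil genes but high for Prg2, and it was listed at 0 for both Prg3 and Epx. Prg3 was 9.30, 0 and 2.24, and Epx was 8.73, 0 and 1.57.

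No gene of the 8 passed the test between EAP and transplanted WT by limma (0.0256% of all genes did), and 0 of 8 had an unadjusted p under 0.05 (3.61% of all genes). Differences ran from -0.88 for Epx to 0.17 for Prg2, with a median of -0.37 against -0.02 over all genes, and each adjusted p was 1.00. Without the 3 libraries that stood apart, still 0 of 8 were called, and 1 of all 11668 genes. The differences then ran from -1.04 for Epx to 0.61 for Prg2. Without EAP 1 alone, Cpa3 differed by -1.23 (SE 0.33, adjusted p 0.520) and Fcer1a by -1.37 (SE 0.65, adjusted p 0.524).

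The third comparison adds ENU to the EAP genotype. Mcpt8 was 91.3, 96.6 and 121 in EAP with ENU 1 to 3, overlapping with EAP, and Prss34 was 124, 82.3 and 88.8. Fcer1a was 22.0, 35.3 and 35.8, and Cpa3 was 132, 89.7 and 118. For each of these 4 the ENU libraries lay between EAP 1 and the pair EAP 2 and EAP 3, apart from the highest Mcpt8 value, which was just above EAP 1.

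Ms4a2 separated the groups, with 6.21, 7.47 and 6.64 in EAP with ENU. These were the 3 highest Ms4a2 values of the 12 libraries, and the difference from EAP was 1.31 (SE 0.45), with an unadjusted p of 0.0138 and an adjusted p of 0.909. It was the single gene of the 8 with no overlap, against 6.68% of all genes with EAP with ENU higher. The same 3 libraries lay above transplanted WT without overlap (0.75, SE 0.45), against 9.9% of all genes.

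Prg2 and Epx were nearly level across the ENU libraries, and Prg3 less so. Prg2 was 54.9, 54.2 and 51.7, Prg3 was 1.51, 2.89 and 1.94, and Epx was 2.77, 3.19 and 3.35. None was listed at 0, while each untreated group had a library at 0 for Prg3 and Epx.

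Limma called 0 of the 8 genes between EAP with ENU and EAP, and 0% of all genes tested. Ms4a2 alone had an unadjusted p under 0.05, against 5.26% of all genes. The differences ran from -0.37 for Prss34 to 1.31 for Ms4a2, with a median of 0.63 against 0.03 over all genes. Without EAP 1 the median of the 8 was 1.36, with Fcer1a at 2.43 (SE 0.65, adjusted p 0.523), Mcpt8 at 1.41 (SE 0.42, adjusted p 0.523) and Cpa3 at 1.37 (SE 0.33, adjusted p 0.511). Still 0 of the 8 were called, and 0 of all 11719 genes.

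Against transplanted WT, EAP with ENU gave 0 calls among the 8 by limma (0.0171% of all genes were called), and 0 of 8 at an unadjusted p under 0.05 (3.21% of all genes). The differences ran from -0.69 for Prss34 to 1.06 for Fcer1a, with a median of 0.21. EAP and EAP with ENU are each compared with the same transplanted WT libraries, so these differences share their controls.

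Markers of other cells are given beside these values. The summed level of 9 neutrophil lineage genes was 2008 to 2183 in WT, 3184 to 7187 in transplanted WT, 2852 to 3380 in EAP 2 and EAP 3, 18214 in EAP 1 and 7169 to 10229 in EAP with ENU. The sum of the 8 genes was 65.9 to 133 in WT, 166, 494 and 1023 in transplanted WT 1 to 3, 987, 196 and 203 in EAP 1 to 3 and 372 to 436 in EAP with ENU. The WT libraries were the 3 lowest for both sums. Elane, a neutrophil protease of the early granule, was 22.4 to 54.9 in WT and 1612 in EAP 1. The 7 monocyte and macrophage markers summed to 22.8 to 61.6 in WT, 48.3, 179 and 66.3 in transplanted WT 1 to 3, 190.3, 56.0 and 109 in EAP 1 to 3 and 242 to 389 in EAP with ENU. Transplanted WT 3, with the highest sum of the 8 genes, was thus close to WT for these markers. The 5 megakaryocyte markers summed to 68.0 to 134 in WT and 242 to 258 in transplanted WT. At an unadjusted p under 0.05 by limma, 4 of 5 were higher, against 7.29% of all genes at that p. The 5 erythroid markers summed to 31.4 to 42.3 in WT and 58.6 to 116 in transplanted WT. At that p, 2 of 5 erythroid, 6 of 9 neutrophil and 2 of 7 monocyte and macrophage markers were higher. So were 0 of 3 measured B cell markers, and 2 of 9 stem cell and LSK markers were lower. The 7 T and NK cell markers summed to 499 to 733 in WT and 948, 938 and 1921 in transplanted WT 1 to 3. They summed to 1883, 482 and 704 in EAP 1 to 3 and 864 to 992 in EAP with ENU. Transplanted WT 3 and EAP 1, the libraries with the highest sums of the 8 genes, were thus also highest for these markers. Between transplanted WT and WT, 5 of 7 were higher at an unadjusted p under 0.05 by limma. Limma called 0 of these markers in that comparison. The 9 stem cell and LSK markers, with no gene at 0 throughout a group, summed to 2660 to 3532 in WT and 1886 to 2459 in the other groups. The part of these cells in the results was not tested.

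Mast cell proteases were read as a list of their own. Of 11 listed, 2 were measured in LSK cells. Tpsb2, a tryptase, was 34.3 and Cma1, a chymase, 34.2 in WT 2, while the other 11 libraries ran from 0 to 7.25 and from 0 to 5.30. WT 2 had neither the highest Cpa3 (67.3) nor the highest Fcer1a (1.17) of the 12 libraries. Within the WT group it was highest for both, and for Mcpt8 (16.9) and Prss34 (44.4). It was listed at 0 for Ms4a2, Prg3 and Epx. In EAP, Cma1 was listed at 0 in all 3 libraries. Transplanted WT had Cma1 at 4.37 ± 1.02 and Tpsb2 at 5.64 ± 2.31. Tpsb2 was 0.448 ± 0.393 in EAP, and both genes were lower there without overlap, against 3.18% of all genes. They were also lower without overlap in EAP with ENU, at 0.806 ± 0.931 and 0.392 ± 0.518, as were 1010 of 11730 genes. Limma called neither gene, and these values lie near 0. Cd200r3, a receptor of basophils and mast cells, was 35.1 in EAP 1 and at most 4.06 in the other libraries.

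**Figure D2:**
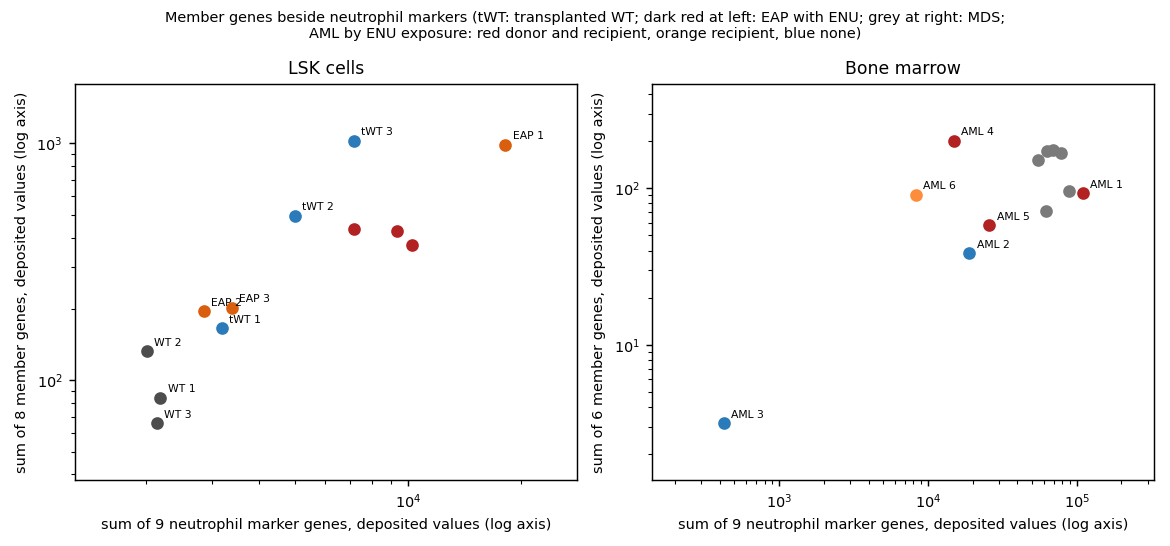
Sum of the member genes (vertical, log axis) against the sum of 9 neutrophil marker genes (horizontal, log axis) in each library, in deposited values, for LSK cells (8 genes, left) and marrow (6 genes, right). WT lies at the lower left with sums of 65.9 to 133, and AML 3 lies alone at the lower left of the marrow panel with a sum of 3.16.

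In marrow, the values of the 6 measured genes could be turned back into reads. Per kilobase, the MDS order was Prss34 at 53.8 ± 20.1 (SD, n = 6), Mcpt8 at 31.3 ± 11.7, Prg2 at 25.7 ± 7.76, Cpa3 at 8.76 ± 2.37, Fcer1a at 5.63 ± 2.59 and Epx at 0.784 ± 0.408. Mcpt8 and Prg2 did not differ beyond their spread, while Cpa3 lay above Fcer1a by more than either SD. In AML the order was Cpa3 at 23.5 ± 35.0, Prg2 at 18.1 ± 10.0, Prss34 at 11.5 ± 13.04, Mcpt8 at 10.0 ± 7.65, Fcer1a at 4.14 ± 4.39 and Epx at 0.587 ± 0.532. Neighbours among the first 4 of these differed by less than the larger of their SDs.

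Prss34 was 28.3 to 85.8 in the 6 MDS libraries, with a median of 78.5. In AML 1 to 6 it was 35.3, 1.71, 0.048, 32.0, 13.3 and 2.13. AML 1 and AML 4 fell within the MDS range and the other 4 lay below it. The log2 difference was -3.08 (SE 0.81), with an unadjusted p of 0.00239 and an adjusted p of 0.0544 by limma.

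Mcpt8 ran from 16.5 to 42.6 in MDS, with a median of 34.1. In AML 1 to 6 it was 21.7, 9.93, 0.048, 15.0, 8.80 and 4.59, so only AML 1 reached the MDS range. The log2 difference was -1.95 (SE 0.62, adjusted p 0.0816). The 2 basophil proteases were lowest in the same library, AML 3, where each was 1 read.

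Fcer1a ran from 1.91 to 8.29 in MDS (median 6.39) and was 4.53, 0.225, 0, 2.23, 6.21 and 11.6 in AML 1 to 6. AML 6 was above every MDS library, AML 2 and AML 3 were below them all, and the difference was -0.78 (SE 0.60, adjusted p 0.388). Cpa3 was 6.41 to 16.1 in MDS (median 14.7) and 9.01, 0.494, 0.096, 131, 7.55 and 65.7 in AML. AML 4 and AML 6 lay far above MDS for Cpa3, AML 2 and AML 3 far below, and the log2 difference was -0.41 (SE 1.04, adjusted p 0.806). By edgeR on the recovered reads, that difference turned to 1.43 (adjusted p 0.396).

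The eosinophil genes come last. Prg2 was 17.2 to 34.5 in MDS (median 18.8) and 18.8, 22.7, 2.97, 19.3, 21.0 and 6.16 in AML, so 4 AML libraries sat within the MDS range. Epx, the peroxidase, was 0.747 to 3.28 in MDS (median 2.33) and 3.33, 3.50, 0, 0.712, 1.16 and 0.93 in AML. The differences were -0.70 (SE 0.43, adjusted p 0.281) and -0.38 (SE 0.39, adjusted p 0.521). AML 2, which had almost no Prss34, Fcer1a or Cpa3, thus had Prg2 and Epx above the MDS medians.

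**Figure D3:**
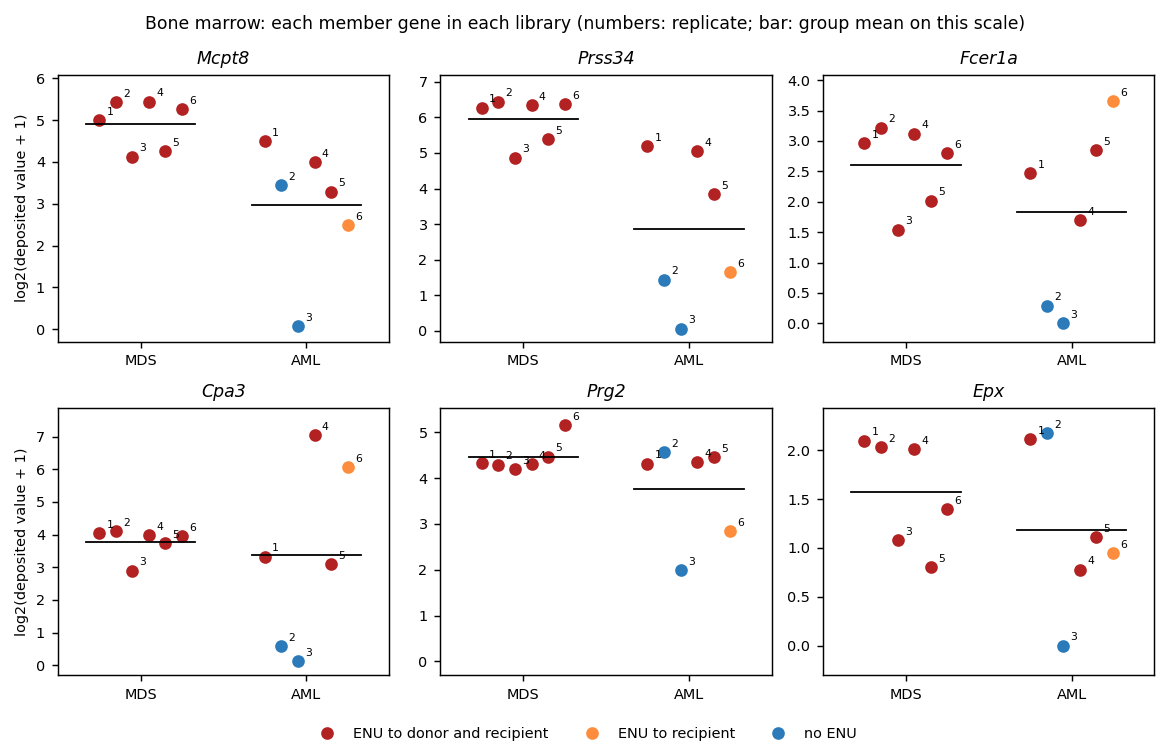
Values of the 6 measured genes in marrow, one panel per gene, with MDS and AML along the horizontal axis and log2(value + 1) of the deposited values on the vertical axis; points are libraries coloured by ENU exposure, and lines are group means. AML 3 is the lowest of the 12 libraries in all 6 panels, and Cpa3 in AML 4 (131) and AML 6 (65.7) lies above every MDS library.

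Between AML and MDS, limma called 0 of the 6 genes, against 3.2% of all genes tested. At an unadjusted p under 0.05 there were 2 of 6 (Prss34 and Mcpt8), both lower, against 29.3% of all genes. By edgeR 0 of 6 were called, and 448 of all 11273 genes. The 6 differences were all below 0, with a median of -0.74 against 0.04 over all genes. Without AML 1, Prss34 (-3.54, adjusted p 0.0122) and Mcpt8 (-2.26, adjusted p 0.0258) passed the test, in a fit that called 22% of all genes. Without AML 4, Prss34 alone passed (-3.52, adjusted p 0.0419), in a fit that called 2.96%.

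AML 3 was the lowest of the 12 libraries for 6 of 6 genes. It held 1 read each of Mcpt8 and Prss34, 2 of Cpa3, none of Epx or Fcer1a, and 62 of Prg2. Its neutrophil marker sum was 426, against 8272 to 109879 in the other AML libraries and 54668 to 89202 in MDS, and its B cell marker sum was 1796, against 46.1 to 149 elsewhere. Without AML 3 the differences were -2.52 (SE 0.69, adjusted p 0.0651) for Prss34 and -1.37 (SE 0.37, adjusted p 0.0639) for Mcpt8. That fit called 0 of 6, and 267 of all 11268 genes. MDS 3 was the lowest MDS library for 5 of the 6 genes, with a neutrophil sum inside the MDS range.

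AML with ENU to donor and recipient can be set against MDS at equal exposure, with AML 1, AML 4 and AML 5 against the 6 MDS libraries. Prss34 differed by -1.26 (SE 0.47, unadjusted p 0.0212, adjusted p 0.295) and Mcpt8 by -0.99 (SE 0.64, adjusted p 0.453). Cpa3 differed by 0.70 (SE 0.74), a value resting on AML 4, without which it was -0.58. Limma called 0 of 6 genes (0% of all genes), and 1 of 6 had an unadjusted p under 0.05 (14.8% of all genes). By edgeR 0 of 6 were called, and 0 of all 11275 genes. The median was -0.25 against 0.02 over all genes.

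Within AML, the 4 leukaemias with any ENU can be set beside the 2 without it. Prss34 was 35.3, 32.0, 13.3 and 2.13 in AML 1, 4, 5 and 6 and 1.71 and 0.048 in AML 2 and 3. The groups did not overlap, though AML 6 was close to AML 2. Prss34 rose by 3.17 on the log2(value + 1) scale (SE 0.57, adjusted p 0.0468), the only call among the 6 genes by limma, against 0.452% of all genes.

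Cpa3 and Fcer1a were also without overlap in this split, so that 3 of 6 genes were higher with ENU, against 5.09% of all genes. Cpa3 differed by 4.53 (SE 0.90, adjusted p 0.0599) and Fcer1a by 2.52 (SE 0.51, adjusted p 0.0616). AML 2 held 11 reads of Cpa3 and 5 of Fcer1a. Mcpt8 differed by 1.81 (SE 0.78, adjusted p 0.392), Prg2 by 0.71 (SE 0.56, adjusted p 0.700) and Epx by 0.15 (SE 0.63, adjusted p 0.964).

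In this split 4 of 6 genes had an unadjusted p under 0.05, against 11.9% of all genes, and the median was 2.17 against 0.03. The Prss34 call rests on few libraries. Its adjusted p was 0.0838 without AML 3 (difference 2.49), 0.0629 without AML 1 (2.76) and 0.104 without AML 4 (2.80), it was 0.112 by edgeR on the recovered reads, and it was 1.00 when the AML libraries were fitted alone. Without AML 1, Cpa3 alone was called (5.05, adjusted p 0.0284), in a fit that called 1.55% of all genes. Without AML 4, Cpa3 (adjusted p 0.00651) and Fcer1a (2.84, adjusted p 0.0497) were called, against 0.568% of all genes. Without AML 5, Cpa3 (5.12, adjusted p 0.0440) was called beside Prss34, against 0.514% of all genes. No member was called without AML 3. Without AML 2, where the lone library AML 3 is assumed to vary like the other groups, 5 of 6 were called, in a fit that called 23.5% of all genes.

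**Figure D4:**
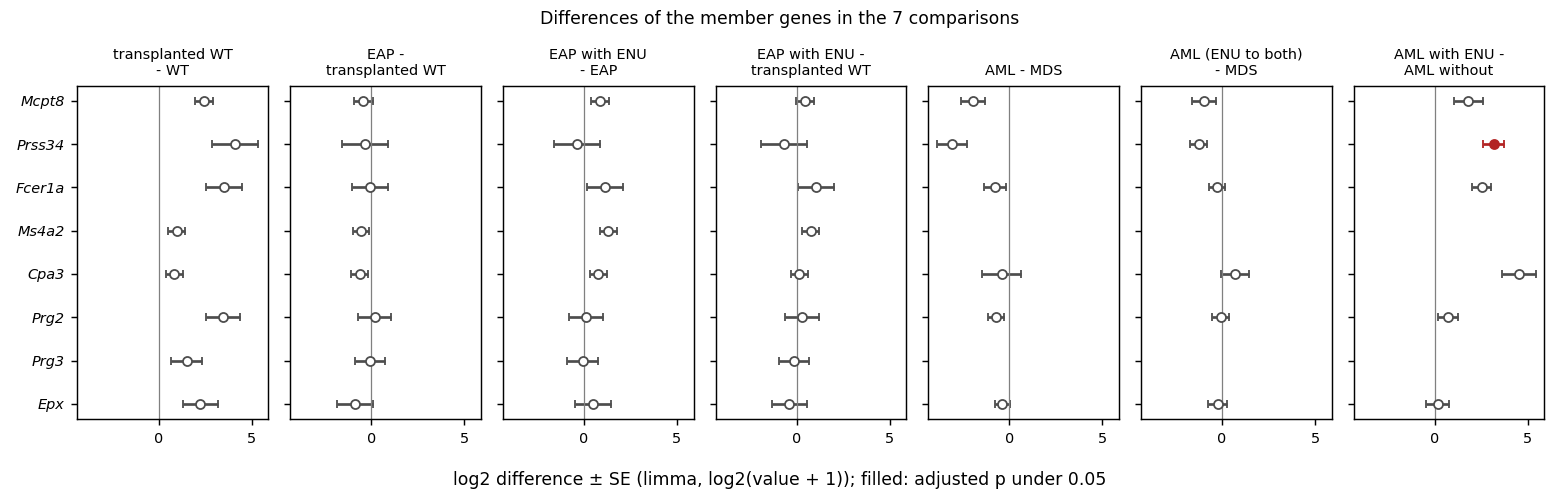
Log2 differences (log2(value + 1) scale, horizontal axis) of each member gene in the 7 comparisons, one panel per comparison, with bars of 1 SE and filled points where the adjusted p was under 0.05. Differences for transplanted WT against WT all lie above 0 (0.84 to 4.10) and those for AML against MDS all lie below 0 (-3.08 to -0.38), while those of EAP against transplanted WT straddle 0.

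Markers of other lineages are given beside these values. The 3 measured of 5 listed erythroid markers summed to 468 to 1923 in MDS and to 282, 44.8, 1.4, 410, 99.3 and 30.7 in AML 1 to 6. T and NK cell markers summed to 597 in AML 4 and 1387 in AML 5, against 5.4 to 146 in the other 10 libraries. AML 6, one of the libraries high for Cpa3, had a megakaryocyte sum of 449, a Gata2 value of 177 and a Kit value of 375, the highest of the 12. AML 4, the other, had a Gata2 value of 10.3 and a Kit value of 41.0. The basophil marker sum, over 5 of 7 listed genes, was 9.0 to 15.9 in AML without ENU and 120 to 702 in AML with any ENU. This sum is made of the members Mcpt8, Prss34, Fcer1a and Cpa3 along with Hdc, so it is not separate from the values above. The split was not limited to basophil markers. Megakaryocyte markers summed to 3.7 to 16.3 in AML without ENU and 30.3 to 449 in AML with any ENU. T and NK cell markers summed to 5.4 to 67.9 and 116 to 1387 in these groups. B cell markers went the other way, at 91.6 to 1796 and 46.1 to 81.3. Erythroid and neutrophil sums overlapped between these groups. The part of these cells in the results was not tested.

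Genes of the same pathways were read from 7 lists. Of 13 signalling genes downstream of the IgE receptor, 12 were measured in LSK cells and 13 in marrow, and 0 were called in any of the 7 comparisons. Fcer1g, the shared gamma subunit of the receptor, was 77.0 ± 45.2 in EAP and 135 ± 16.8 in EAP with ENU, a log2 difference of 0.95 (unadjusted p 0.0238, adjusted p 0.909). Lat (-0.82) and Lat2 (-0.50) went the other way in that comparison. Fyn, a kinase of the same pathway that T cells also use, was 125 ± 86.1 in AML and 38.8 ± 13.04 in MDS (log2 difference 1.42, adjusted p 0.0803).

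Of 13 other basophil genes, 11 were measured in LSK cells and 9 in marrow, and 1 was called. Cyp11a1, a steroid-synthesis enzyme, rose in AML with any ENU over AML without it by 1.92 (adjusted p 0.0285). It was 32.1 in AML 6 and at most 1.20 in the other AML libraries, while MDS ran from 1.48 to 3.11. Hdc, which makes histamine, was 4.53 to 6.73 in WT, 9.04 to 33.6 in transplanted WT, 5.59 to 15.0 in EAP and 26.3 to 33.2 in EAP with ENU. Its ENU libraries did not overlap with EAP (log2 difference 1.71, unadjusted p 0.00247, adjusted p 0.909), against 6.68% of all genes with EAP with ENU higher. Cyp11a1 (-1.11) and Ccl3 (-0.99) went the other way there, and the median over the measured genes of this list was -0.08.

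Hdc in AML was 631, 3.50, 8.80, 107, 99.9 and 35.8 in AML 1 to 6 and 72.7 to 566 in MDS. The AML libraries without ENU were the lowest, and AML 1 lay above every MDS library, with a log2 difference of 4.25 between exposed and unexposed AML (adjusted p 0.0616).

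Of 10 other eosinophil genes, 5 were measured in LSK cells and 7 in marrow, with 0 called. Siglecf, an eosinophil surface lectin, was 18.8 ± 1.82 in EAP with ENU and 7.93 ± 5.86 in EAP (log2 difference 1.47, unadjusted p 0.0277, adjusted p 0.909). Ear2, an eosinophil ribonuclease, was 3.97 to 14.7 in AML with any ENU and 0.33 and 0.49 in AML without it (log2 difference 2.63, adjusted p 0.0616). Alox15, a lipoxygenase of eosinophils, was 0.712 ± 0.551 in AML and 2.21 ± 0.733 in MDS (log2 difference -0.94, adjusted p 0.0627). Against EAP, Alox15 (-0.66) and Il5ra (-0.45) were lower in EAP with ENU, opposite to Siglecf.

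The 10 cytokine receptors were all measured in both tables, with 0 called. Csf2rb, the shared beta chain of the interleukin-3, interleukin-5 and GM-CSF receptors, was 178 ± 168 in AML and 509 ± 103 in MDS (log2 difference -2.05, adjusted p 0.0623). Il1rl1, the interleukin-33 receptor of mast cells and basophils, was 7.91 ± 5.69 and 20.6 ± 10.2 (log2 difference -1.45, adjusted p 0.0778). Neither passed the test.

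The 14 transcription factors were likewise all measured, with 0 called. Gata1 was 16.5 to 35.3 in WT and 38.8 to 59.6 in transplanted WT (log2 difference 1.02, adjusted p 0.545). The groups did not overlap, against 7.71% of all genes with transplanted WT higher. In marrow Gata1 was 56.2 to 211 in MDS and 46.6, 5.93, 0.10, 51.7, 17.7 and 24.5 in AML 1 to 6 (log2 difference -2.67, adjusted p 0.0738). Every AML library lay below MDS, as was so for 240 of all 11273 genes tested. Cebpb was 9.86 ± 8.18 in transplanted WT, 46.0 ± 23.8 in EAP and 53.7 ± 18.7 in EAP with ENU, and its adjusted p was 1.00 in both comparisons with transplanted WT.

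Of 10 genes for mediator synthesis and the granule matrix, 9 were measured in each table and 0 were called. Alox5, the first enzyme of leukotriene synthesis, was 2.72 ± 1.34 in EAP and 10.1 ± 1.71 in EAP with ENU (log2 difference 1.63, unadjusted p 0.00768, adjusted p 0.909). Hpgds went the other way in that comparison (-0.67).

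The members did not all follow one profile. Over the 12 LSK libraries, the correlation of each gene with the mean of the other members, on log2(value + 1), ran from 0.51 for Ms4a2 and 0.79 for Cpa3 to 0.97 for Mcpt8. Over the 12 marrow libraries it ran from 0.49 for Cpa3 and 0.50 for Epx to 0.90 for Mcpt8. These correlations describe libraries that share groups.

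The genes whose pattern lay closest to the members' mean were found among genes with a mean value of at least 5. Of 9526 candidates in LSK cells, the first 8 were Elane (r = 0.954), Gtf3a (0.938), Aurkb (0.933), Hp (0.918), Ms4a3 (0.917), Ska3 (0.900), Slc3a2 (0.898) and Ndufaf5 (0.896). Elane and Ms4a3 are genes of granulocyte progenitors, Hp encodes haptoglobin, and Aurkb and Ska3 act in mitosis. Without WT 2 and WT 3, the libraries farthest from the median, r for these 8 ran from 0.811 to 0.928.

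Of 10088 candidates in marrow, 7 of the first 8 were Parvb (r = 0.954), Abhd16a (0.947), Hemgn (0.947), Gata1 (0.944), Aqp1 (0.935), Kel (0.935) and Adam19 (0.934). Hemgn, Aqp1 and Kel are genes of red cell precursors, and Gata1 encodes a GATA factor. The GATA word marked in the promoters above is not particular to Gata1, and a link between Gata1 and the members was not tested. Without AML 2 and AML 3, r for these 7 ran from 0.673 to 0.831, and that of Gata1 was 0.700.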

How the data were processed

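Bulk RNA-seq values of 12 LSK and 12 marrow libraries were used as deposited. The submitters' processing notes name bcl2fastq, FastQC, TopHat, SAMtools, edgeR and mm10, with no version or role. The authors deposited both tables as normalised signal without raw counts. Marrow values came back as whole reads for 99.99% to 100.0% of values (within 0.05 of a read), and LSK values did not. Both had been taken for CPM when the tests were chosen, and the log-scale test was kept. In marrow, 155 rows repeating another row were merged. The stromal libraries were deposited by the authors as TPM.

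Main tests used limma 3.58.1 in R 4.3.3 (trend, two-sided) on log2(value + 1), all 12 libraries of a table sharing one spread, a filter that kept genes reaching a value of 1 in a number of libraries equal to the smaller group's size, and Benjamini-Hochberg adjustment over all genes tested at 0.05. Alternatives were a pseudocount of 0.1, the compared libraries alone, no filter on low values, median-of-ratios rescaling, a replicate block, edgeR 4.0.16 on marrow reads, and leaving out each library. The fits were tested on simulated data. Gene lengths are from GENCODE M21. The members and lists were chosen with earlier results of these data known. Named list genes are the 4 of lowest p per list and comparison, of which those discussed are a selection made after their values were seen. Named similar genes are the 8 of highest r, of which 1 in marrow is not reported here. Ms4a2 and Prg3 in marrow, and reads of the LSK libraries, were not analysed.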

Additional observations from a re-analysis of the deposited data

Results flagged for a closer look

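Prg2, the major basic protein gene, was 34.5 in MDS 6, against 17.2 to 21.1 in the other 5 MDS libraries. Its gap to the next library was 0.778 of the group's range, above the critical value of 0.625 for 6 samples. It was the only such value among 14 groups of 6 examined, and chance flags about 1 in 20 groups.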

How the results depend on the processing

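Of the member differences, 279 under other settings and 303 with 1 library left out kept their direction and side of the threshold. Under other settings 11 reversed, 3 lost and 5 gained the call, and with 1 library left out 36 reversed, 3 lost and 12 gained it. The counts of called members moved as follows. For transplanted WT minus WT (0 of 8), leaving out WT 2, transplanted WT 3 and EAP 1, a setting chosen after seeing the data, gave 3, with 498 genes called in all. Single libraries left out gave 0 to 1. For AML minus MDS (0 of 6), leaving out single libraries gave 0 to 2, and the count over all genes went from 361 to between 0 (without AML 5, AML 6 or any of 5 MDS libraries) and 2475 (without AML 1), with 145 at a pseudocount of 0.1. For AML with any ENU minus AML without ENU (1 of 6, with 51 genes called in all), a pseudocount of 0.1 gave 3, with 77 genes called in all. The compared libraries alone gave 0, and edgeR gave 0 with 18 genes called in all. Single libraries with ENU left out gave 1 to 2. Without AML 2 or AML 3, only 1 library without ENU was left. The cause was not tested.

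The directions that turned were these. Without the 3 libraries that stood apart, Prss34 was 0.67 and Prg3 0.77 for EAP with ENU minus EAP, and Prss34 was 0.25, Prg3 0.33 and Epx 0.31 for EAP with ENU minus transplanted WT. At a pseudocount of 0.1, Prg3 was 0.72 in the first of these, and Prg3 was 0.61 and Epx 0.43 in the second. By edgeR, Cpa3 was 1.43 for AML minus MDS and Epx -0.25 for AML with any ENU minus AML without ENU. With single libraries left out, EAP minus transplanted WT ran from -1.35 to 0.62 for Prss34, -1.15 to 0.90 for Prg2, -0.94 to 0.78 for Prg3 and -1.37 to 1.21 for Fcer1a. EAP with ENU minus EAP ran from -0.91 to 0.67 for Prss34, -0.40 to 0.41 for Prg2, -0.92 to 0.77 for Prg3, -0.29 to 1.35 for Epx and -0.15 to 2.43 for Fcer1a. EAP with ENU minus transplanted WT ran from -0.04 to 0.77 for Mcpt8, -1.72 to 0.25 for Prss34, -1.04 to 1.02 for Prg2, -1.01 to 0.33 for Prg3, -1.61 to 0.31 for Epx and -0.10 to 0.46 for Cpa3. In marrow, Cpa3 ran from -1.15 to 0.24 for AML minus MDS, and AML with ENU to donor and recipient minus MDS ran from -0.13 to 0.06 for Prg2, -0.63 to 0.04 for Epx, -0.53 to 0.05 for Fcer1a and -0.58 to 1.40 for Cpa3. AML with any ENU minus AML without ENU ran from -0.58 to 2.00 for Prg2 and -0.93 to 1.24 for Epx. The cause was not tested. LSK read depth is unknown, which limits what values near 0 can show.

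In the main tests the replicate numbers were not treated as pairs. In deviations from group means, same-numbered WT and transplanted WT libraries correlated at 0.309, -0.604 and -0.616. In marrow, AML 3 (0.165) and AML 6 (0.232) correlated most with the MDS library of the same number. AML 1, AML 2, AML 4 and AML 5 did not. Deviations within such small groups cannot decide whether the numbers pair the libraries. With the replicate block, the count for AML with any ENU minus AML without ENU was 0, with 0 genes called in all. The count over all genes for AML minus MDS was 141, and Prg2 was 0.01 for AML with ENU to donor and recipient minus MDS. The block called none of the members in the other comparisons.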

Other observations

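Mesenchymal stromal cells, the supporting cells of the marrow, were also deposited as TPM from 3 mock-treated and 3 ENU-treated samples (100 mg/kg). Mcpt8 was 8.30, 34.2 and 1.48 TPM in the mock samples and 20.7, 42.7 and 3.21 TPM in the ENU samples, so that both groups spanned more than the gap between them. The other 7 genes, Prss34, Fcer1a, Ms4a2, Cpa3, Prg2, Prg3 and Epx, reached at most 0.377 TPM in any of the 6. Mcpt8 was thus detected in stromal samples in which the other basophil genes were at or near 0.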
